A study of Schistosoma mansoni with 6 samples.

Results

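The early growth response gene Smp_134870 (egr), the Calcium-binding protein 2 gene Smp_025390 (CaBP2) and Smp_010370, named polyposis locus protein 1 homolog, were examined in male Schistosoma mansoni blood flukes. These 3 genes were picked because their reads were higher after 200 Gy of gamma irradiation, out of 13305 rows in the deposited table, 10770 of which have exons. All 3 passed the filter on low counts, as did 8885 genes in all. Their difference between the groups is therefore given as a description with no test, for every class of reads. What the choice did not fix is how each gene's reads divide between exons, splice junctions and introns, and what the related and neighbouring genes did.

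Early growth response proteins are zinc finger transcription factors. In mammals they are immediate early genes, transcribed within minutes of a growth factor or a stress, and in planarian flatworms a member of the family is needed for epidermal progenitors to mature. CaBP2 carries the annotation of calcium ion binding. In mammals its name has been used both for a calmodulin-like neuronal protein with EF-hands, the helix-loop-helix motif that holds calcium, and for a large thioredoxin-like protein of the endoplasmic reticulum (ER). The exons of the worm gene total 357 bases, enough for at most 119 codons. Polyposis locus protein 1 is a mammalian name for a member of the REEP family, membrane proteins that bend ER tubules, and their yeast relative is Yop1. For the worm genes themselves the files give product names and general annotation terms, such as transcription and DNA binding for egr.

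The irradiated group was adult males of the NMRI strain exposed to 200 Gy of gamma rays from a cobalt source, and the control group was mock irradiated males of the same strain. Worms of both groups were taken from mice on day 43 of infection and kept for 48 h in Basch Media 169 at 37 °C and 5% CO2. Males were then parted from females with ethyl 3-aminobenzoate methanesulfonate, heads and testes were cut away, and RNA of the remaining tissue was pooled from 14 to 18 worms per library. Each group has 3 libraries, A, B and C, sequenced together on 1 lane. Separate infections for the pools are not stated in the labels, so the spread and the p-values below refer to pools, which may differ only technically.

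The libraries held 21594259 to 29641087 exon reads in the irradiated group and 17577059 to 26858868 in the control group. Exons took 86.0 to 87.2% of the reads counted within genes in irradiated libraries and 82.9 to 87.2% in control libraries, with control B lowest. The 3 listed neoblast markers, genes of the worm's stem cells, were ago2-1, nanos-2 and fgfrA. They summed to 14.4 to 20.9 CPM (counts per 1000000 exon reads of the library) in irradiated libraries and 79.0 to 84.2 CPM in control libraries, and all 3 fell. These markers were listed with earlier results of these data known, so their fall is no independent measure of stem cell loss. Over all tested genes 0.619% rose and 2.49% fell (edgeR, adjusted p under 0.05). Of 45 tegument markers tested, 3 rose, and the sum of the list was 17650 to 19029 CPM in irradiated and 15896 to 17011 CPM in control libraries. The head gland list held 43 genes with MEG or venom allergen in the product name, which does not by itself place a gene in the head. Of these, 10 were at 0 in all libraries and 1 of 11 tested rose. The others still gave reads after removal of the head, and the list summed to 2409 to 2473 CPM in irradiated and 2384 to 2555 CPM in control libraries. Except for the neoblast list and 1 tegument gene, the other marker lists were likewise matched by product name. The 5 sperm and testis markers summed to 363 to 366 CPM in irradiated and 389.6 to 401.8 CPM in control libraries. Gut markers, 13 tested and none called, summed to 22949 to 23974 CPM in irradiated and 24051 to 26272 CPM in control libraries. The sums of muscle (23 tested, 2 fell), nerve (19 tested, 1 rose and 1 fell) and female (6 tested, none called) markers overlapped between the groups. The part these tissues have in the 3 genes' levels was not tested, and in whole pieces of worm a change in the number of cells and in the RNA per cell cannot be told apart.

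The level of egr was 54.7 CPM in irradiated A, 56.0 in irradiated B and 41.9 in irradiated C, against 30.8 CPM in control A, 24.9 in control B and 24.3 in control C. Every irradiated library lay above every control library, with irradiated C lowest of its group and control A highest of its own. The means were 50.9 ± 7.77 CPM in irradiated and 26.7 ± 3.58 CPM in control worms (SD, n = 3 each), a log2 fold change of 0.92 (SE 0.12) or 1.90-fold. The nearest pair of libraries, irradiated C and control A, differed 1.36-fold and the farthest 2.30-fold. These values rest on 1003 to 1618 exon reads per irradiated library and 426 to 826 per control library.

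CaBP2 was scarce in control worms. It had 6.86 CPM in irradiated A, 4.26 in irradiated B and 4.72 in irradiated C, against 1.08 CPM in control A, 0.744 in control B and 0.514 in control C. Every irradiated library again exceeded every control library, and library A was the highest of both groups. In reads, this was 203, 92 and 113 in irradiated A, B and C, against 29, 17 and 9 in control A, B and C, so control values carry wide counting error. The means were 5.28 ± 1.39 CPM in irradiated and 0.780 ± 0.286 CPM in control worms (SD, n = 3 each), a log2 fold change of 2.71 (SE 0.28) or 6.54-fold. The nearest pair of libraries, irradiated B and control A, differed 3.94-fold and the farthest 13.4-fold.

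Smp_010370 was the most abundant of the 3. It had 155 CPM in irradiated A, 134 in irradiated B and 115 in irradiated C, against 80.2 CPM in control A, 60.4 in control B and 70.7 in control C. The groups did not overlap, irradiated C being the lowest irradiated library and control A the highest control library, as for egr. The means were 135 ± 20.1 CPM in irradiated and 70.4 ± 9.91 CPM in control worms (SD, n = 3 each), a log2 fold change of 0.93 (SE 0.12) or 1.91-fold. Its exon reads numbered 2744 to 4584 per irradiated library and 1239 to 2150 per control library.

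**Figure D1:**
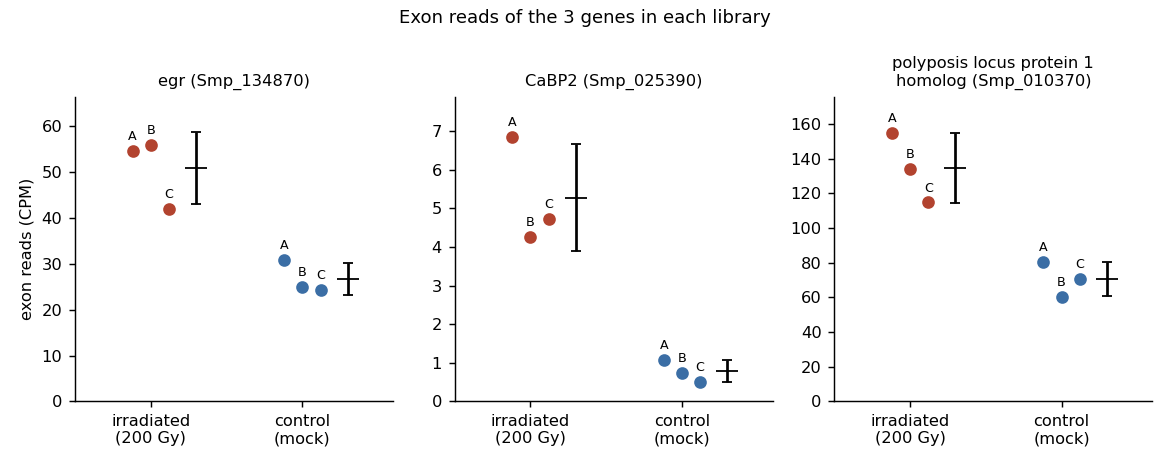
Exon reads of the 3 genes in CPM (vertical axis, one panel per gene) in irradiated and control libraries, with a point for each of libraries A, B and C and a black bar for the mean ± SD. No irradiated point is as low as a control point; the nearest pair of points differs 1.36-fold for egr, 3.94-fold for CaBP2 and 1.43-fold for Smp_010370.

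All 3 genes are among the 55 genes called higher in irradiated worms, which are 0.619% of the 8885 tested (edgeR, adjusted p under 0.05), and among the 1066 genes, 12%, whose irradiated libraries all exceed their control libraries. Nothing is read from either count, because the genes were chosen on this contrast. By log2 fold change CaBP2 stood at place 4 of the genes tested, Smp_010370 at place 23 and egr at place 24. CaBP2 was thus one of 7 genes, 0.0788% of those tested, called higher and at least 2-fold up, and the other two stood just under 2-fold. In the authors' deposited table the signed fold change was 6.88 for CaBP2, 1.94 for egr and 1.94 for Smp_010370.

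Per length of exon the order of the 3 genes was the same in both groups. In the deposited RPKM values, which scale reads to exon length and library size, Smp_010370 had 118 ± 17.0 RPKM in irradiated and 60.6 ± 9.91 RPKM in control worms. For egr the level was 30.3 ± 4.38 RPKM in irradiated and 15.6 ± 2.40 RPKM in control worms, and for CaBP2 it was 12.8 ± 3.36 RPKM in irradiated and 1.87 ± 0.713 RPKM in control worms (SD, n = 3 each). Neighbours in this order were apart by more than their SDs in both groups. Among the 10770 genes with exons, the level of Smp_010370 was above that of 90.3% of genes in irradiated and 80.7% in control worms. The same shares were 65.0% in irradiated and 49.3% in control worms for egr, and 46.1% in irradiated and 23.4% in control worms for CaBP2.

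The spread of the genes among pools of one group was wide for their abundance. The pooled within-group SD of log2 CPM was 0.21 for egr, larger than in 96.4% of 1566 genes of like abundance, whose median was 0.08. For Smp_010370 it was 0.21, larger than in 96.9% of 1524 such genes, with a median of 0.06. For CaBP2 it was 0.44, larger than in 95.8% of 495 genes, with a median of 0.19. Like abundance was judged over both groups together, and CaBP2 had only 29, 17 and 9 exon reads in control A, B and C. Counting error therefore adds to its SD, which was 0.51 in control and 0.36 in irradiated worms. Control A was the highest control library for all 3 genes. Within the irradiated group the order differed, with B above A above C for egr, A above C above B for CaBP2 and A above B above C for Smp_010370.

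The table counts each gene's reads within exons, across exon-exon junctions, across intron-exon boundaries and within the whole gene. Exon-exon reads, which are also part of the exon reads, come from spliced RNA, and reads across a boundary or inside an intron come from unspliced RNA, from DNA or from transcripts whose exons are not in the gene model. Intronic reads were taken as gene reads less exon reads. The library kit is not stated to mark the strand, so reads from an overlapping or antisense transcript cannot be told apart from those of the gene.

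For egr the spliced reads differed less between the groups than the exon reads did. Exon-exon reads numbered 134, 97 and 87 in irradiated A, B and C, against 76, 57 and 48 in control A, B and C. The groups did not overlap in CPM, at 4.22 ± 0.505 CPM in irradiated and 2.69 ± 0.176 CPM in control worms (SD, n = 3 each). The ratio of summed exon-exon reads was 1.57 (95% exact counting interval 1.31 to 1.90), against 1.88 (1.78 to 1.99) for exon reads, and the intervals overlap. As a share of exon reads, exon-exon reads made up 8.28, 8.02 and 8.67% in irradiated A, B and C, against 9.20, 10 and 11.3% in control A, B and C. Every irradiated library had a smaller spliced share than every control library, 8.33 ± 0.328% in irradiated and 10.2 ± 1.04% in control worms. Among 7452 genes with at least 30 exon-exon reads, 412, or 5.53%, had all irradiated shares below all control shares. On the log2 scale the exon-exon ratio of egr was 0.26 below its exon ratio (difference -0.26), while the median gene stood at 0.00, and 2.32% of genes had a lower difference.

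Reads across intron-exon boundaries were numerous for egr. They numbered 135, 114 and 89 in irradiated A, B and C, against 79, 47 and 40 in control A, B and C, a ratio of 1.82 (1.51 to 2.21). They made up 50.2, 54.0 and 50.6% of all junction reads in irradiated A, B and C, against 51.0, 45.2 and 45.5% in control A, B and C. Control A lay among the irradiated libraries here, so the groups overlapped. The boundary share of 47.8% over the control libraries was above that of 90.6% of 7665 genes, whose median was 7.09% and whose quartiles were 2.46 and 19.3%. The spliced share of exon reads was correspondingly small in control worms at 9.93%, with 13.0% of 8097 genes below it and a median of 32.4%.

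No intronic read was counted for egr in any of the 6 libraries, although boundary reads were counted. The same was seen in other genes. Of 8097 tested genes with at least 2 exons, 460 had no intronic read and 325 of those had at least 30 intron-exon reads, so boundary reads are either held within the exon count or left out of the gene count. The exon count of egr may therefore include reads that run into its introns.

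For CaBP2 every class of reads was higher in irradiated libraries. Exon-exon reads numbered 96, 47 and 49 in irradiated A, B and C, against 16, 7 and 2 in control A, B and C, a ratio of 6.87 (4.52 to 10.9) beside 6.64 (5.00 to 8.96) for exon reads. Intronic reads numbered 50, 31 and 33 in irradiated A, B and C, against 12, 4 and 1 in control A, B and C, a ratio of 6.0 (3.59 to 10.7). The counting intervals of the 3 classes overlap. Without control A, which holds most of the control reads, the ratio was 12.3 (5.10 to 38.5) for intronic and 11.5 (5.92 to 25.5) for exon-exon reads, with 5 and 9 control reads left. Boundary reads were few, 12, 11 and 10 in irradiated A, B and C, against 2, 3 and 1 in control A, B and C, a ratio of 4.92 (2.04 to 14.4).

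The division of CaBP2 reads overlapped between the groups. Exon-exon reads were 47.3, 51.1 and 43.4% of exon reads in irradiated A, B and C, against 55.2, 41.2 and 22.2% in control A, B and C. The irradiated shares lie within the control range. Intronic reads were 19.8, 25.2 and 22.6% of gene reads in irradiated A, B and C, against 29.3, 19.0 and 10% in control A, B and C, which overlap likewise. The last control share rests on 1 intronic read. Over the control libraries the intronic share of 23.6% was above that of 64.8% of genes, whose median was 15.5%.

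For Smp_010370 the spliced reads followed the exon reads and the intronic reads did not. Exon-exon reads numbered 2211, 1424 and 1343 in irradiated A, B and C, against 1053, 655 and 603 in control A, B and C, a ratio of 1.93 (1.83 to 2.03) beside 1.92 (1.85 to 1.99) for exon reads. Their share of exon reads was 48.2, 49.2 and 48.9% in irradiated A, B and C, against 49.0, 47.5 and 48.7% in control A, B and C. The groups overlapped in this share and the libraries spanned less than 2 percentage points.

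Intronic reads of Smp_010370 numbered 53, 30 and 26 in irradiated A, B and C, against 9, 10 and 4 in control A, B and C. Scaled to exon reads this was 1.42 ± 0.354 CPM in irradiated and 0.334 ± 0.105 CPM in control worms (SD, n = 3 each), and the groups did not overlap. The ratio of summed intronic reads was 4.24 (2.69 to 6.97), an interval that lies above that of its exon reads. Both intervals cover counting error only and leave out the spread among pools. That spread, as a pooled within-group SD of log2 values, was 0.42 for intronic and 0.21 for exon reads. Intronic reads made up 1.14, 1.03 and 0.939% of gene reads in irradiated A, B and C, against 0.417, 0.719 and 0.322% in control A, B and C. All irradiated shares exceeded all control shares, 1.04 ± 0.103% in irradiated and 0.486 ± 0.208% in control worms.

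How many genes of the table had such a division is given as a description. Of 7415 genes with at least 30 intronic reads, 146, or 1.97%, had all irradiated intronic shares above all control shares. That minimum was taken over the 6 libraries. Smp_010370, with 23 intronic reads in control worms, and CaBP2, with 17, reached it only through their irradiated reads. The shares of genes given here are therefore no test. The log2 ratio of intronic reads of Smp_010370 exceeded that of its exon reads by 1.14, while the median gene stood at -0.19, and 0.539% of genes had a larger difference. The same difference for CaBP2 was -0.15, with 40.6% of genes above it. The intronic reads are few in absolute terms, 109 in irradiated and 23 in control worms, and the control share of 0.480% was low, with 7.15% of genes below it. Boundary reads of Smp_010370, 35, 17 and 14 in irradiated A, B and C, against 10, 6 and 7 in control A, B and C, had a ratio of 2.57 (1.58 to 4.33), whose interval overlaps that of the exon reads.

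Control B had a larger intronic share over all genes than the other libraries, 17.1% of gene reads, against 12.8 to 14.0% in irradiated libraries and 12.8 and 14.3% in control A and C. The median gene had a log2 ratio of -0.22 for intronic reads, -0.12 for boundary reads and 0.00 for exon and exon-exon reads. Beside these medians, the intronic log2 ratios were 2.58 for CaBP2 and 2.08 for Smp_010370, and became 2.80 and 2.30 with each library scaled to its own intronic total. Of all genes with enough reads, 0.0270% had a higher intronic ratio than CaBP2 and 0.0539% a higher one than Smp_010370. For exon-exon reads 0.0134% of genes had a higher ratio than CaBP2, 0.362% a higher one than Smp_010370 and 0.832% a higher one than egr. These ranks largely restate the choice of the genes for their rise, so nothing is read from them.

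**Figure D2:**
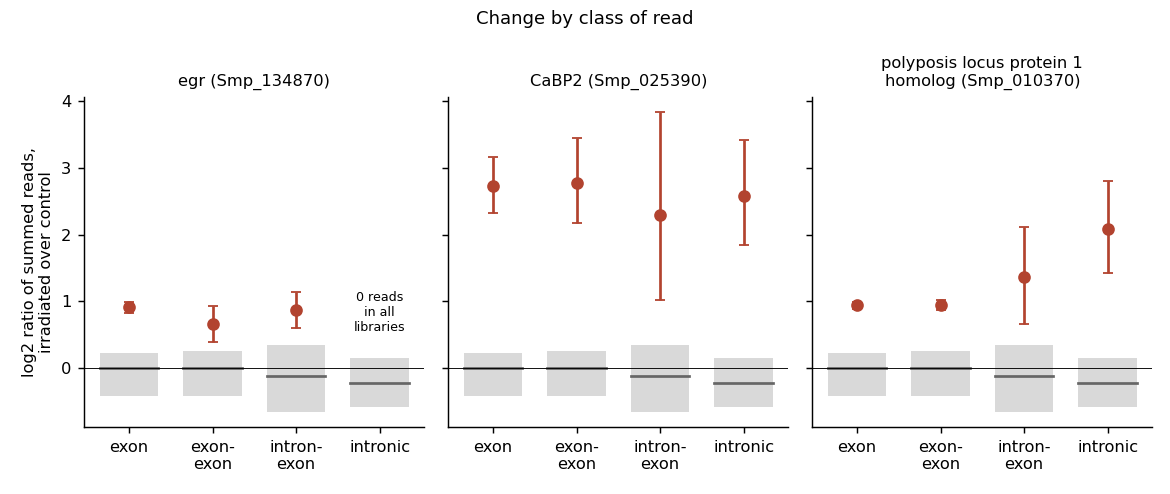
Ratio of summed reads, irradiated over control, on a log2 scale for each class of reads of the 3 genes, with bars for the 95% exact counting interval, which covers counting error only. The grey band runs from the 5th to the 95th percentile of all genes in that class and the line in it is the median; the intronic point of Smp_010370 lies above its exon point, the exon-exon point of egr below its exon point, and egr has no intronic reads.

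**Figure D3:**
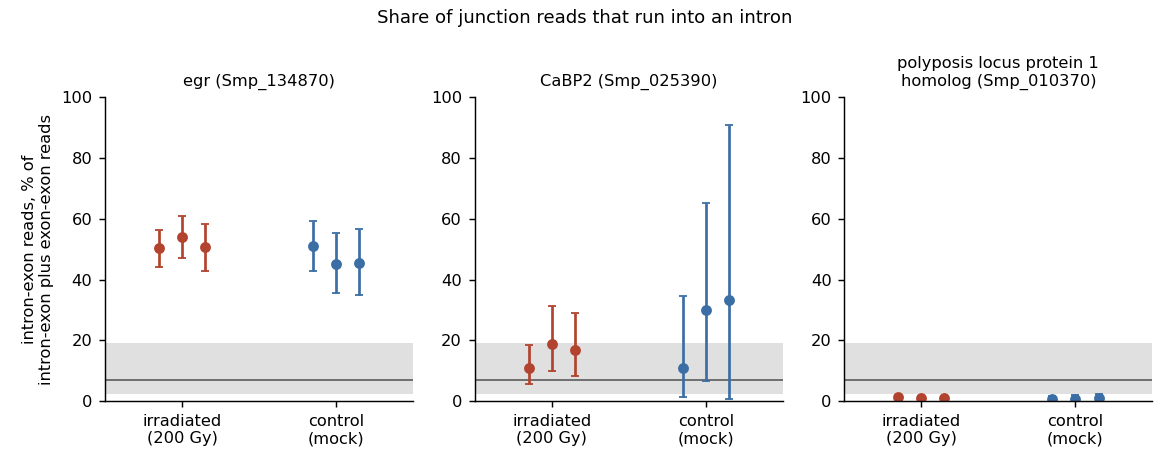
Share of junction reads that cross an intron-exon boundary, in percent, in libraries A, B and C of irradiated and control worms, with 95% Clopper-Pearson intervals that cover counting error only. The grey band is the interquartile range of all genes in control libraries and the line their median of 7.09%; egr lies between 45.2 and 54.0% in all 6 libraries, and the groups overlap for each of the 3 genes.

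The table names 4 early growth response genes. In irradiated worms Smp_134870 had 30.3 ± 4.38 RPKM and Smp_026270 had 23.6 ± 3.63 RPKM, and these ranges of mean ± SD overlapped. The same libraries gave both values, and the difference within each library was not tested. Smp_149680 at 2.61 ± 0.0229 RPKM and Smp_094930 at 1.06 ± 0.226 RPKM lay below them. In control worms Smp_026270 was the most abundant at 32.4 ± 1.59 RPKM, before Smp_134870 at 15.6 ± 2.40 RPKM, Smp_149680 at 2.73 ± 0.0844 RPKM and Smp_094930 at 0.637 ± 0.287 RPKM (SD, n = 3 each), and these levels were apart by more than their SDs.

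Smp_026270 had 69.4, 91.5 and 70.6 CPM in irradiated A, B and C, against 101, 117 and 106 CPM in control A, B and C. All its irradiated libraries lay below its control libraries, as in 13.3% of all genes tested, and it fell by 0.49 on the log2 scale (SE 0.10, edgeR adjusted p = 0.0393). That call was lost without irradiated A (edgeR adjusted p = 0.141), irradiated C (0.142), control B (0.164) or control C (0.152), at a minimum of 5 CPM (0.0585), with limma (0.0616 and 0.0602), and on exon-exon (0.0982) or intronic (0.196) reads. Smp_149680 changed by -0.10 on the log2 scale (SE 0.10, edgeR adjusted p = 0.598). Smp_094930 had a log2 fold change of 0.68 (SE 0.29, edgeR adjusted p = 0.222), and its libraries overlapped, at 1.63 to 2.54 CPM in irradiated and 0.919 to 1.98 CPM in control worms.

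With 15 other genes, Smp_134870 makes up a list matched by product name. It was meant for the egr family and transcription factors that respond to stimuli in other animals, such as jun, fos, CREB and ets products. The match also took in Smp_127010, which is named CREB-binding protein 2 and not CREB. Of the other 15, none rose and 2 fell (edgeR, adjusted p under 0.05), beside 0.619% of all tested genes that rose and 2.49% that fell. Before adjustment, p was under 0.05 for 1 that was higher and 6 that were lower, beside 8.27% higher and 13.3% lower over all genes. DESeq2 called none higher and 5 lower, Smp_127010 among them (adjusted p = 0.00147), beside 1.43% higher and 5.51% lower over all genes. Their median log2 fold change was -0.10, against 0.00 over all genes tested, and 5 of the 15 were above 0. The count of genes that fell was 0 without irradiated A, 5 without irradiated B, 3 without control A and 1 without any other single library.

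The second gene that fell was the ets product Smp_127020, with 1.87 ± 0.291 CPM in irradiated and 4.05 ± 0.742 CPM in control worms (log2 fold change -1.11, SE 0.18, edgeR adjusted p = 0.0111, and 0.0569 without irradiated A). The jun-related gene Smp_067520, whose mammalian relatives are immediate early genes like egr, had 60.0 ± 4.69 CPM in irradiated and 71.6 ± 4.22 CPM in control worms (log2 fold change -0.26, edgeR adjusted p = 0.0765). It is one of the 5 genes called lower by DESeq2 (adjusted p = 0.0279), and edgeR called it lower without irradiated B (adjusted p = 0.0124). The fos-related gene Smp_170130 had a log2 fold change of -0.06 (edgeR adjusted p = 0.768).

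CaBP2 belongs to a list of 40 tested genes named as calmodulins, calcium-binding or EF-hand proteins. Of the other 39, none rose and none fell by edgeR, beside 0.619% and 2.49% of all tested genes. At an unadjusted p under 0.05, 7 were higher and 1 was lower, beside 8.27% and 13.3% of all tested genes. DESeq2 called 2 higher, Smp_025410 (adjusted p = 0.0162) and Smp_135980 (adjusted p = 0.0273), beside 1.43% of all genes. Without irradiated B, edgeR called 2 higher, Smp_032950 (adjusted p = 0.0253) and Smp_025410 (adjusted p = 0.0295). The median of the 39 was 0.05 on the log2 scale, 27 were above 0, and the log2 fold changes ran from -0.32 to 0.35. The abundant calmodulin Smp_026560, the main cytosolic calcium sensor of animal cells, had a log2 fold change of -0.01 (edgeR adjusted p = 0.894), and the calcium-binding protein Smp_005350 of 0.14 (edgeR adjusted p = 0.147). The list's name pattern also took in a kinase, a phosphodiesterase and a transcription activator (Smp_148400) that are named for calmodulin. Smp_148400 is the 1 gene that was lower before adjustment (edgeR unadjusted p = 0.0386). Without these products 36 other genes remained, with none called by edgeR and the same 2 called higher by DESeq2.

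In the order of genes along the RefSeq assembly, CaBP2 stands in a run of calcium-binding genes. Of the 3 nearest genes on each side, 4 are so named. Smp_135980, similar to a 16 kDa calcium-binding protein, had 117 ± 19.5 RPKM in irradiated and 90.7 ± 11.2 RPKM in control worms (log2 fold change 0.35, SE 0.12, edgeR adjusted p = 0.130). The calmodulin Smp_025410 had 77.2 ± 8.92 RPKM in irradiated and 61.0 ± 4.61 RPKM in control worms (log2 fold change 0.32, SE 0.08, edgeR adjusted p = 0.0756). Both sit on the same side of CaBP2. Smp_135970, named after a pollen polcalcin, changed by 0.14 on the log2 scale (edgeR adjusted p = 0.474), and Smp_025380 by -0.01 (edgeR adjusted p = 0.957) at 371 ± 33.8 RPKM in irradiated and 367 ± 32.2 RPKM in control worms. CaBP2 thus had the lowest level per length of these 5 genes in both groups. None of the 5 had exon reads that mapped to more than 1 place.

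No neighbour of CaBP2 was called by edgeR, although 2 of 6 had a p under 0.05 before adjustment, and these are Smp_025410 and Smp_135980, the pair that DESeq2 called above. Beside egr, 5 of 6 neighbours were tested and none was called by edgeR or DESeq2, with 4 at an unadjusted p under 0.05 (2 higher and 2 lower) and log2 fold changes from -0.16 to 0.13. Beside Smp_010370, 5 of 6 neighbours were tested and none was called by edgeR or DESeq2, with 0 at an unadjusted p under 0.05 and log2 fold changes from -0.09 to 0.11. Over all tested genes the shares were 0.619% higher and 2.49% lower by edgeR, 1.43% and 5.51% by DESeq2, and 8.27% and 13.3% at an unadjusted p under 0.05, so counts of 0 among 5 or 6 genes are near the background.

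Because CaBP2 can also name a thioredoxin-like ER protein, the ER folding genes were listed beside it. Of 7 others, none rose or fell by edgeR or DESeq2, beside 0.619% higher and 2.49% lower over all genes by edgeR and 1.43% and 5.51% by DESeq2. At an unadjusted p under 0.05, 3 were higher and none lower, beside 8.27% and 13.3% over all genes. The median of the 7 was 0.08 on the log2 scale. The list was matched by product name, which does not by itself place a gene in the ER. Among the 3 is Smp_028930, named only as related to thioredoxin domain containing protein 9. Calreticulin (Smp_030370), a calcium-binding chaperone of the ER, had a log2 fold change of 0.15 (SE 0.05, edgeR adjusted p = 0.147) and endoplasmin (Smp_030300), the ER form of the chaperone Hsp90, of -0.06 (edgeR adjusted p = 0.534).

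Smp_010370 is one of a pair of genes named polyposis locus protein 1 homolog. The other, Smp_099890, was more abundant, at 454 ± 4.78 RPKM in irradiated and 429 ± 30.5 RPKM in control worms, and had a log2 fold change of 0.06 (SE 0.05, edgeR adjusted p = 0.546). Other proteins that shape ER tubules gave -0.11 for the reticulon Smp_020370 (edgeR adjusted p = 0.200), 0.10 for the reticulon Smp_058240 (edgeR adjusted p = 0.233) and 0.04 for atlastin (Smp_146800), which fuses tubules (edgeR adjusted p = 0.622). So none of these 4 was called by edgeR, and DESeq2 called none, with 1 lower at an unadjusted p under 0.05. Of 23 genes matched by product name for ER stress, translocation and degradation, edgeR and DESeq2 called none. Among the 23, 3 were higher and 1 was lower at an unadjusted p under 0.05. They include Smp_018430, which is named a mitochondrial signal peptidase (log2 fold change -0.07, edgeR adjusted p = 0.588). For lists of 4 and 23 genes, counts of 0 are near the background of 0.619% higher and 2.49% lower by edgeR and 1.43% and 5.51% by DESeq2, and the unadjusted counts stand beside 8.27% and 13.3%. The median of the 23 was 0.05 and their range -0.16 to 0.20 on the log2 scale, and one of the most abundant, cdc48 (Smp_018240), had -0.06 (edgeR adjusted p = 0.434).

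**Figure D4:**
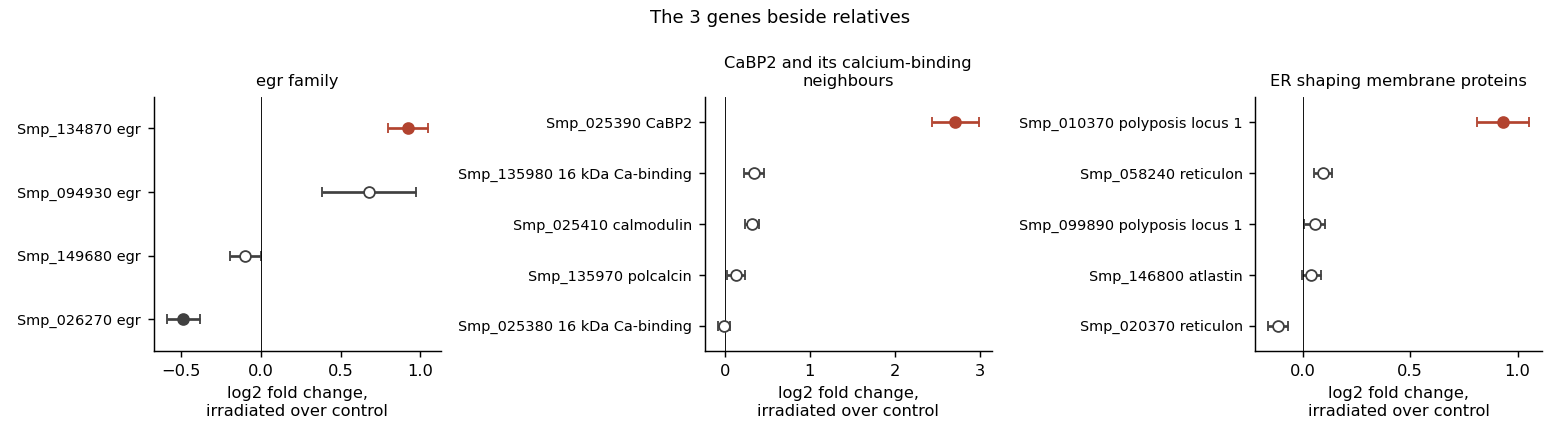
Log2 fold change, irradiated over control (horizontal axis), with bars for its SE, of the 3 genes (red) beside the egr family (left), the calcium-binding neighbours of CaBP2 (middle) and the ER shaping membrane proteins (right). Filled points have an edgeR adjusted p under 0.05; apart from the 3 chosen genes the only filled point shown is Smp_026270 at -0.49.

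Likeness of pattern was measured as the root-mean-square difference of log2 CPM over the 6 libraries, each gene taken relative to its control mean, among 8207 genes. The gene nearest to egr was Smp_010370, at 0.11, and the converse held. Since the distance is taken from the control mean and both genes were chosen for their rise, this closeness follows largely from the choice. The other nearest genes were found by closeness to genes that rose, so their own rise also follows largely from it. The adjusted p-values given for them are descriptions and no test. The gene SmVAL8, a venom allergen-like protein of a secreted family, was second for both, at 0.15 from egr and 0.12 from Smp_010370. SmVAL8 had 23.5 ± 1.36 CPM in irradiated and 11.9 ± 1.95 CPM in control worms. It rose by 0.97 on the log2 scale (edgeR adjusted p = 0.00103), and it is on the head gland list by its name alone. Next for egr was adenosine deaminase (Smp_035700), an enzyme of purine breakdown, at 0.18, with 33.7 ± 3.49 CPM in irradiated and 18.7 ± 2.98 CPM in control worms (log2 fold change 0.84, edgeR adjusted p = 0.00379). Next for Smp_010370 was Smp_205580, which has no product name, at 0.15 (log2 fold change 0.97, edgeR adjusted p = 0.0349), whose call was lost without irradiated A (0.125), control B (0.0823) or control C (0.155) and at a minimum of 5 CPM (0.0552). On exon-exon reads its log2 fold change was 0.28 (edgeR adjusted p = 0.538).

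By the same measure CaBP2 stood at 1.32 from both egr and Smp_010370. That distance largely restates the size of its rise, on which it was chosen, and genes with a mean log2 CPM under 1 were not candidates. A rise of the genes nearest to CaBP2 likewise follows largely from the choice, and their adjusted p-values are no test. Its nearest gene was the hypothetical protein Smp_132830, at 0.83, with 12.5 ± 2.0 CPM in irradiated and 3.77 ± 0.160 CPM in control worms (log2 fold change 1.73, edgeR adjusted p = 9.2e-05). Next were Smp_130370, named elongation of fatty acids protein 1, at 1.07 (log2 fold change 1.16, edgeR adjusted p = 0.0551), and the hypothetical protein Smp_150830, at 1.17 (log2 fold change 1.09, edgeR adjusted p = 0.0380). The call of Smp_150830 was lost without irradiated A (0.144), control B (0.150) or control C (0.146), on exon-exon reads (0.0802) and with limma (0.0598 and 0.0645). Its log2 fold change was 0.57 on gene reads (edgeR adjusted p = 0.0796) and 0.36 on intronic reads (0.287). Smp_130370 was called higher under 8 alternatives, among them DESeq2 (adjusted p = 0.00052) and edgeR without control A (0.0037). Ranking by Pearson's r in place of this distance gave none of the same 3 companions for any of the 3 genes, so the companions rest on the measure of likeness.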

How the data were processed

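RNA was sequenced from 3 irradiated and 3 control pools. The authors deposited 1 table with counts of reads per gene in 4 classes, unique and total, RPKM values per library and their mean, a p-value, and a signed fold change with no error, here treated as a score, per the file headers; exon number and exon length are further deposited columns. Neither aligner, counting rules nor genome build is given in the sources used here, so no coordinates are printed. The 3 genes and the gene lists were chosen with earlier results of these data known.

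Total exon reads of 10770 rows with exons (the 2535 others held 0.654 to 1.40% of gene reads) were filtered with edgeR's filterByExpr, scaled by TMM and tested over the 6 libraries with edgeR 4.0.16 (quasi-likelihood, Benjamini-Hochberg over 8885 genes, threshold 0.05) in R 4.3.3. A count of 3 reads equals 0.101 to 0.171 CPM. Ratios of summed reads carry exact intervals and shares Clopper-Pearson intervals, both at 95%. Both kinds cover counting error only and not the spread among pools. Alternatives were DESeq2 1.42.0, limma 3.58.1 on log2(RPKM + 0.5) or log2(RPKM + 0.1), other scaling, filters and read classes, a replicate block and each library left out. The scripts were tested on simulated data. Genes named are the 3 genes, the 3 nearest by likeness to each (mean log2 CPM of at least 1), and from each list the called genes, up to 6, or the 2 most abundant; family members, neighbours and genes called by an alternative were named after their values were seen. RefSeq locus tags matched 9647 rows, the 3 genes included, and gave only the order of genes.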

Additional observations from a re-analysis of the deposited data

How the results depend on the processing

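The log2 fold changes of the 3 genes kept their direction in all settings that gave a value. Leaving out 1 library gave 0.85 to 1.05 for egr, 2.47 to 3.05 for CaBP2 and 0.82 to 1.04 for Smp_010370. The values that moved by more than 1 SD were 0.65 for egr on exon-exon reads and 2.28 and 1.44 for Smp_010370 on intronic and intron-exon reads. CaBP2 gave no value with a minimum of 5 CPM, nor egr on intronic reads. Genes called higher, 55 by edgeR on exon reads, were 26 at a minimum of 5 CPM, 127 with DESeq2, 30 on intronic reads and 8 on intron-exon reads, and 16 to 129 with 1 library left out. Genes called lower, 221, were 77, 490, 19 and 16 under the same 4 settings, 140 and 139 with limma at the pseudocounts 0.5 and 0.1, and 119 to 723 with 1 library left out. The cause of these moves was not tested.

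Same-lettered pools did not deviate together (r = 0.01 for A, 0.17 for B and -0.11 for C), nor did every pool correlate best with its own letter, and the labels do not say whether letters pair the pools, so they were not used as pairs. With the letter as a replicate block, 277 genes were called higher and 851 lower, against 55 and 221 without it, although same-lettered pools did not deviate together. Whether the letters mark a shared batch was not tested. Among the genes called with the block, 2 of the ER folding list were higher (Smp_056760 and Smp_028930). Of the calcium-binding list, 3 other genes were higher and 1 was lower. The lower gene is the calmodulin-binding transcription activator Smp_148400, which the shorter calcium-binding list leaves out. Of the 15 other genes of the egr list, 5 were lower.

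Uncalled genes near 0 changed sign in some settings. Calmodulin Smp_026560 gave 0.023 on gene reads, 0.15 on intronic reads, 0.012 with limma at either pseudocount and -0.032 to 0.0039 with 1 library left out. On intronic reads Smp_005350 gave -0.038, Smp_020370 0.058, Smp_018240 0.0051 and Smp_053820 -0.084. On intron-exon reads Smp_099890 gave -0.070, Smp_020370 0.082, Smp_018240 0.13 and Smp_053820 -0.22, and on exon-exon reads Smp_099890 gave -0.0083. The intron-exon reads, the ratios of read classes with 1 library left out and the shorter calcium-binding list were added after seeing the data. Depth limits CaBP2 in control libraries and the intronic reads of Smp_010370.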

Other observations

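The calcium annotation of CaBP2 was chosen for a count after its values were seen. Of 435 other tested genes with that deposited term, 8 rose (1.84%, against 0.619% of all tested genes) and 6 fell (edgeR, adjusted p under 0.05). The largest was Jagged (Smp_141250), a ligand of Notch receptors in other animals, with 2.83 ± 1.01 CPM in irradiated and 0.552 ± 0.338 CPM in control worms (log2 fold change 2.26, SE 0.40, edgeR adjusted p = 0.0170). Gelsolin (Smp_008660), which severs actin filaments, had 1605 ± 342 CPM in irradiated and 972 ± 122 CPM in control worms (log2 fold change 0.72, edgeR adjusted p = 0.0270). An annexin (Smp_074140), of a family that binds membranes in the presence of calcium, had 962 ± 158 CPM in irradiated and 688 ± 53.6 CPM in control worms (log2 fold change 0.48, edgeR adjusted p = 0.0451). By its product name the annexin is also on the tegument list, so it is among the tegument markers counted above as risen. These genes were named after their values were seen. The calls of Jagged, gelsolin and the annexin were each lost without control B or without control C. Those of Jagged and the annexin were also lost without irradiated A, and that of the annexin also without irradiated C. Their edgeR adjusted p was up to 0.0985 for Jagged, 0.152 for gelsolin and 0.187 for the annexin. Of the 8, only the hypothetical protein Smp_175270 stayed called with any 1 library left out (log2 fold change 0.40, SE 0.05, edgeR adjusted p = 0.00290, and at most 0.0247). With DESeq2 the count of 8 was 18 (4.14%, against 1.43% of all genes), and with limma 3 (0.690%, against 0.439% at a pseudocount of 0.5). Leaving out 1 library gave from 1 (0.228%, against 0.179% of all genes) without control C to 15 (3.42%, against 1.44%) without irradiated B. Over all tested genes 2.49% fell. Of 803 other genes with the zinc ion binding term of egr, 2 rose and 26 fell, of 621 others with its regulation of transcription term 2 rose and 36 fell, and of 1662 others with the membrane term of Smp_010370, 8 rose and 14 fell.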
